A study of Xenopus laevis with 4 samples.

Results

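The vegetal explant was compared with the ventral marginal zone explant of the Xenopus laevis embryo at stage 10, when gastrulation begins. Both were dissected pieces of the embryo. The labels name no treatment, strain, number of embryos or number of dissections. The vegetal explant is the yolk-rich cell mass around the vegetal pole, and the ventral marginal zone is the sector of the equatorial belt opposite the future dorsal side. The series also holds an animal cap and a dorsal marginal zone explant, whose values stand beside the compared ones. Each explant was measured on 1 array from 100 ng of total RNA after amplification, so the comparison rests on 2 of 4 arrays, has no replicate, and carries no test. Of 15611 probe sets, 120 were controls, and 8574 of the other 15491 entered the comparison because the higher of the pair reached a signal of 147, the median of all values on the 4 arrays. Signals under 24.7, the 20th percentile, were raised to that floor, and a difference was counted when it was 2-fold or more. The probe sets that entered and carry a single gene symbol stand for 4885 genes of 7531 named on the array. In bulk tissue, fewer cells of a type and less RNA per cell cannot be told apart, and this holds for every difference below.

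In the frog blastula, maternal determinants held in the vegetal cytoplasm, among them the T-box factor vegt and the TGF-beta ligand gdf1 (Vg1), start the endodermal program and turn on nodal ligands. Those ligands pattern the overlying equatorial cells into mesoderm, while BMP and Wnt8 activity on the ventral side gives ventral and posterior mesoderm. The vegetal pole also holds the germ plasm, a store of RNAs and mitochondria inherited by the future germ cells. Cells on the animal side of the belt border the prospective epidermis. The allotetraploid genome carries many genes as a pair of homeologous copies, marked .L and .S, which are counted here as separate genes.

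The arrays were alike in scale, but the deposited values carry a whole-array scaling that largely fixes this. Medians lay between 137 and 158 on the 4 arrays, with 158 vegetally and 146 ventrally. The 18 hybridisation spike-in probe sets averaged 0.26 higher (log2) on the vegetal array, with a range of 0.02 to 0.49. The 3′ and 5′ probe sets of beta actin read 448 and 629 vegetally and 940 and 1355 ventrally. The ratio of the 3′ to the 5′ probe set was 0.71 vegetally and 0.69 ventrally. For Gapdh it was 5.85 and 3.99, the highest and the lowest of the 4 arrays, and the part of this in any difference below was not tested.

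Differences were frequent. Of the 8574 probe sets, 1469 differed 2-fold or more, 795 (9.27%) with the higher signal in the vegetal explant and 674 (7.86%) with the higher signal in the ventral marginal zone. Past 4-fold the numbers were 193 and 172, past 8-fold 62 and 79, and past 16-fold 29 on each side. The median difference over all probe sets was 0.02 on the log2 scale, the median absolute difference 0.40, and the middle 90% of probe sets lay between -1.29 and 1.40. Which side had more probe sets depended on the scaling. The vegetal share of the calls was 54.1% as deposited, 44.0% with each array centred on its median (646 vegetal and 823 ventral), and 31.4% with the arrays scaled to the spike-ins (513 and 1121), a step that moved the median of all probe sets to -0.26. By level, 26.7% of the dimmest 2858 probe sets, 15.2% of the middle and 9.52% of the brightest passed 2-fold.

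**Figure D1:**
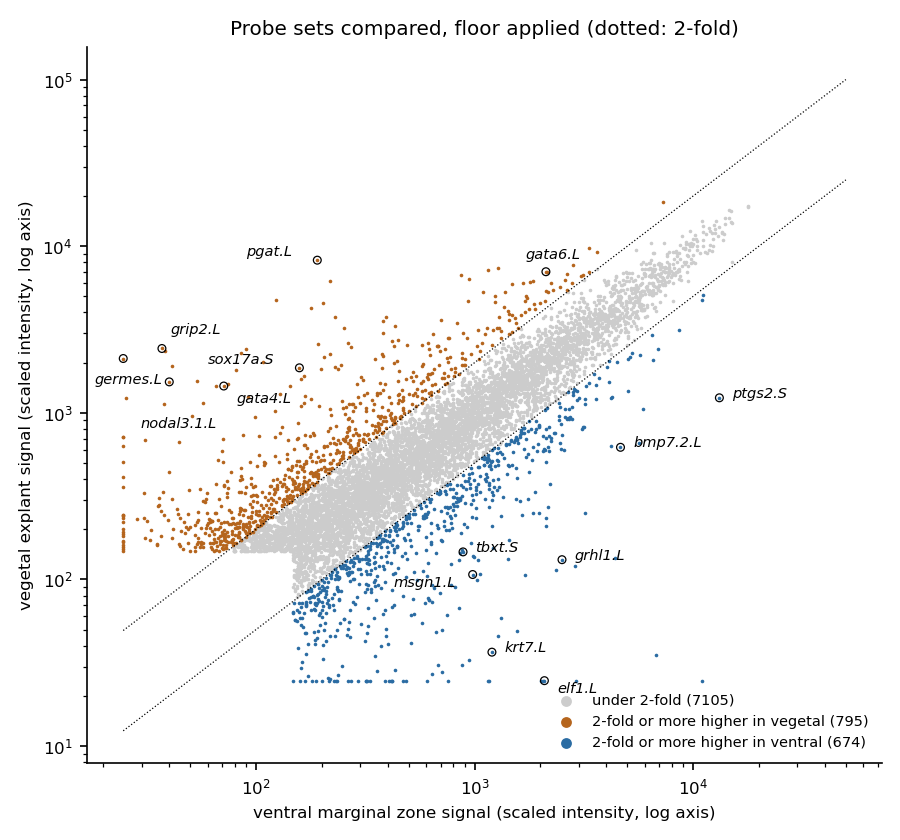
Signal of each probe set in the vegetal explant (vertical) against the ventral marginal zone (horizontal), both in scaled intensity on log axes, with the floor applied. Points are the 8574 probe sets compared, coloured by side when 2-fold or more apart. The 795 vegetal calls and 674 ventral calls lie outside the dotted 2-fold lines, and those on the left and lower edges lie at the floor of 24.7.

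Named genes gave 416 higher vegetally (8.52% of 4885) and 316 higher ventrally (6.47%), with a median gene difference of 0.05. These shares are the background against which the gene groups are read. Of the probe sets called, 297 vegetal and 288 ventral ones had no symbol or several and are not named.

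The labels were checked first against regional markers. The endodermal SOX factor sox17a.L had a vegetal signal of 1830.5 and a ventral one of 237, with 387 dorsally and 28.3 in the animal cap. Brachyury (tbxt.S), which is active around the mesodermal belt, was 146 vegetally against 886 ventrally, 676 dorsally and under the floor in the cap. The ventral homeobox repressor gene ventx2.1.L was 625 vegetally and 2164.5 ventrally, more than in either of the other explants. The endodermal marker was thus highest in the vegetal array, and the mesodermal and ventral ones in the ventral array. The other ventral marker copies were closer: ventx1.1.L averaged 246 and 343, ventx2.1.S 1569 and 2375, ventx2.2.L 294 and 555, and szl.L 166 and 186 (vegetal and ventral, each under 2-fold). The maternal and mesendodermal T-box gene vegt did not separate the pair, with vegt.L at 7247 vegetally and 6574 ventrally and vegt.S at 223 and 268.

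Germ plasm RNAs gave the 3 largest vegetal differences among named genes. Of the 8 probe sets past 32-fold vegetally, 4 carried a single symbol. Germes.L, a germ plasm RNA, was 2118 vegetally and under the floor ventrally, at least 85.8-fold apart, with 32.6 in the cap and 38.8 in the dorsal marginal zone. Grip2.L, whose product acts in germ cell migration in the frog, was 2432 against 37.1 (65.5-fold). The germ plasm RNA pgat.L was 8243 against 191 (43.2-fold). For each of these the vegetal array held the only high value, and the other 3 arrays lay far below it.

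Genes for germline RNA-binding and translational control followed. The translational repressor gene nanos1.L was 1130 vegetally and 37.8 ventrally (29.9-fold), and the DEAD-box helicase gene ddx25.L was 6178 and 217 (28.5-fold). The RNA-binding gene dazl.L was 4242 and 178 (23.8-fold). Dnd1.L, which encodes a protein that protects germline mRNAs from microRNAs in zebrafish, was 4535 and 203 (22.3-fold). The ventral signals of pgat.L, ddx25.L, dazl.L and dnd1.L, from 178 to 217, stood close to the dorsal ones of 162 to 197 and above the animal cap signals of 30.6 to 91.8.

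Other vegetally localised maternal RNAs differed less. Gdf1.S, the Vg1 ligand gene, was 3237 against 253 (12.8-fold), and the homeobox gene otx1.L was 6316 against 939 (6.73-fold). The lipid droplet coat gene plin2 was higher vegetally in both copies, plin2.S at 2550 against 492 (5.18-fold) and plin2.L at 2797 against 757 (3.70-fold). The RNA-binding gene bicc1.S was 369 and 71.3 (5.17-fold), and ctdspl.S, for a small phosphatase, 2245 and 378 (5.95-fold). Wnt11b.L, a maternal Wnt ligand gene, was 1756 and 813 (2.16-fold), with 1132 dorsally and 95.1 in the cap. In the list of germ plasm and vegetal maternal genes, 20 of 32 measured genes, of 33 on the array, passed 2-fold vegetally and 1, celf1.L (72.2 against 162), ventrally, with a median of 1.38. Without the filter on low values the median over the 33 was 1.52. Not every germline gene on the list separated the explants: the vasa homologue ddx4.L, named after its value was seen, had 706 vegetally and 679 ventrally.

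**Figure D2:**
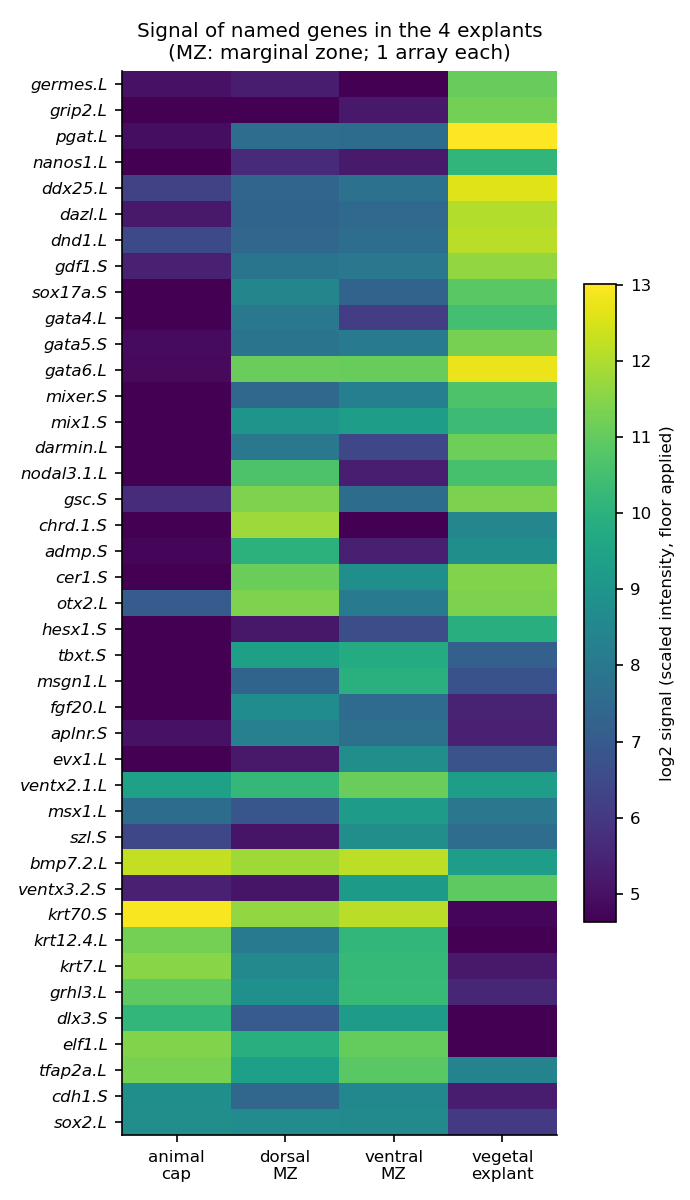
Log2 signal (scaled intensity, floor applied, colour scale) of 41 named genes in the 4 explants, 1 array each, grouped from germ plasm at the top through endoderm, organizer, mesoderm and ventral genes to epidermal and neural genes at the bottom. The vegetal column is brightest from germes.L down to darmin.L and dark for krt70.S, krt12.4.L, dlx3.S and elf1.L, where the ventral column is intermediate between cap and dorsal values.

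Transcription factors of the endoderm were the next group. The zinc finger gene gata4.L was 1448 vegetally and 71.2 ventrally (20.3-fold), and gata4.S was 233 and under the floor (at least 9.44-fold). Gata5.L was 2244 and 219 (10.3-fold) and gata5.S 2478 and 272 (9.09-fold). The third family member was more widely spread, gata6.L having 7027 vegetally, 2121 ventrally and 2204 dorsally (3.31-fold). All these genes lay at or below 29.1 in the cap.

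The SOX and Mix-type genes below were highest in the vegetal explant of the 4, while the order of the dorsal and ventral marginal zones varied from gene to gene. Sox17a.S was 1862 against 158 (11.8-fold) and sox17a.L 7.73-fold higher vegetally. The 2 probe sets of sox17b.1.S read 7246 and 6748 vegetally and 1149 and 867 ventrally, 7.01-fold on average. Mixer, a Mix-type homeobox activator of endoderm genes, was 1630 against 301 for mixer.S (5.41-fold) and 483 against 109 for mixer.L (4.43-fold). Its relatives were closer to the threshold: mix1.S was 1329 and 634, mix1.L 886 and 429 (2.06-fold) and bix1.1.L 437 and 213 (2.06-fold), while bix1.2.S was 419 and 85.6 (4.90-fold). The pioneer factor gene foxa1.S was 306 and 35.9 (8.53-fold), the odd-skipped gene osr1.L 2527 and 681 (3.71-fold) and sox7.L 360 and 96.6 (3.73-fold).

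In all, 19 of 25 measured endoderm regulators passed 2-fold vegetally and 0 ventrally, with a median of 1.90. The array carried 34 of them, and 9 were left out as too dim on both arrays, gata6.S, hhex.L and sia1.L among them. A gene that entered through its vegetal signal alone had to be higher vegetally, though not always by 2-fold. The count therefore describes the measured genes only, as do the counts of the other lists. Without the filter 20 of 34 passed, with a median of 1.12. The T-box gene eomes.L, named after its value was seen, was the member furthest to the ventral side, with 1043 vegetally and 1860 ventrally.

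Among secreted and surface endodermal products, darmin.L, for a secreted peptidase-family protein of the endoderm, led with 2298 against 85.4 (26.9-fold). The multivalent antagonist gene cer1.S was 2740 against 447 (6.14-fold), with 2236 dorsally. The Wnt antagonist gene frzb.L was 2177 against 206 (10.6-fold), but frzb.S, brighter on both arrays, was 9248 against 3625 (2.55-fold). The retinaldehyde reductase gene dhrs3.L was 2185 and 381 (5.74-fold) and the protease inhibitor gene a2m.S 3741 and 1296 (2.89-fold). Some receptor genes passed 2-fold: fgfr4.L was 1110 and 241 (4.61-fold), fgfr4.S 639 and 168 (3.80-fold), and the chemokine receptor gene cxcr4.S 3583 and 1439 (2.49-fold). The copy cxcr4.L, named after its value was seen, was 3574 and 3177. Of 25 measured genes of this list, of 32 on the array, 14 passed 2-fold vegetally and 1, the nodal inhibitor gene lefty.L (47.8 against 168), ventrally, with a median of 1.35 and of 0.78 without the filter.

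Nodal ligands differed in kind. Nodal3.1.L, an atypical ligand that blocks BMP signalling in the frog, was 1533 vegetally, 40.1 ventrally and 1626 dorsally, 38.2-fold apart in the compared pair. Nodal5.2.L, one of the earliest zygotic nodal genes, was 505 vegetally and under the floor on the other 3 arrays, at least 20.5-fold. It was not on the pathway list. Nodal2.L, a nodal ligand gene of the mesendoderm, was 602 against 282 (2.14-fold), with 420 dorsally. The 5 pathway genes that passed 2-fold ventrally were lefty.L and the following 4. The coreceptor gene tdgf1.3.L was 3129 against 8597 (2.75-fold higher ventrally). Smad4.L, for the common mediator SMAD, was 609.6 against 1678 (2.75-fold). The corepressor gene tgif2 was 305 against 1759 for tgif2.S (5.76-fold) and 703 against 2244 for tgif2.L (3.19-fold). Of 21 measured nodal and Vg1 pathway genes, of 32 on the array, 4 were higher vegetally, 5 ventrally and 12 under 2-fold, with a median of 0.00.

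Organizer genes, which mark dorsal tissue, were higher in the vegetal explant than in the ventral marginal zone. Goosecoid, the homeobox gene of the organizer, was 2594 vegetally, 192 ventrally and 2662 dorsally for gsc.S (13.5-fold in the compared pair). Its copy gsc.L had probe set signals of 410 and 1553 vegetally and 4.98 and 53.6 ventrally, at least 21.9-fold on average. The head homeobox gene otx2.L was 2638 and 264 (10.0-fold), with 2707 dorsally. For gsc.S and otx2.L the vegetal signal came close to the dorsal one, while the gsc.L probe sets read 1018 and 3769.5 dorsally.

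Several other organizer genes lay between the dorsal and ventral levels, but hesx1 did not. The BMP antagonist gene chrd.1.S was 360 vegetally and under the floor ventrally on its brighter probe set (at least 14.6-fold), with 3523 dorsally. The probe sets of admp.S, a BMP-type ligand gene of the organizer, read 715 and 276 vegetally, 11.5 and 68.9 ventrally and 932 and 1121 dorsally. The Wnt antagonist gene dkk1.S was 241 vegetally and under the floor ventrally (at least 9.77-fold). The otx-related genes crx.S and crx.L were 524 against 67.0 (7.82-fold) and 821 against 131 (6.26-fold), with 1110 and 1648 dorsally. Hesx1, a homeobox repressor gene of the anterior endoderm and forebrain, had its highest signal in the vegetal explant, with hesx1.S at 942 against 99.5 ventrally and 36.1 dorsally (9.47-fold) and hesx1.L at 246 against 49.0 and 38.7 (5.02-fold).

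In the organizer list 16 of 26 measured genes, of 43 on the array, passed 2-fold vegetally and 2 ventrally, foxd4l1.1.S (128 against 349) and tdgf1.3.L. The median was 2.39. Here too a gene that entered through its vegetal signal alone had to be higher vegetally. Without the filter 22 of 43 passed vegetally and 2 ventrally, with a median of 1.29. Summed over the 30 probe sets of this list, the signal was 50713 in the vegetal explant, 34124 in the ventral marginal zone, 69821 in the dorsal and 31608 in the cap. Only probe sets that passed the filter on the vegetal or ventral signal are summed. The dimmer chrd.1.S probe set, with 855 dorsally, is left out, and bright genes weigh most. The labels do not say which part of the vegetal mass was taken, and the part of dorsal cells in the organizer differences was not tested.

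Of 20 measured mesodermal belt genes, 9 passed 2-fold ventrally, 1 vegetally and 10 neither way. Msgn1.L, a presomitic bHLH gene, was 980 ventrally and 107 vegetally (9.16-fold), with 161 dorsally. Tbxt.S was 6.05-fold higher ventrally. The apelin receptor gene aplnr.S was 210 against 42.5 (4.94-fold), but the brighter copy aplnr.L, named after its value was seen, was 635 against 518. Of the FGF ligand genes, fgf20.L was 187 and 43.6 (4.29-fold) and fgf8.L 2726 and 940 (2.90-fold).

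The ventral homeobox gene evx1.L was 434 ventrally, 109 vegetally and 36.8 dorsally (3.98-fold). Notch pathway genes of the segmenting mesoderm went with it: the ligand gene dll1.L was 723 and 223 (3.24-fold) and the repressor gene hes7.2.L averaged 786 and 256 over both probe sets (3.07-fold). Its relative hes7.1.L ran in the opposite direction, with 59.8 ventrally and 330 vegetally (5.51-fold), and 310 dorsally. The median of the 20 pan-mesoderm genes was -0.78. The array carried 43, and without the filter the median over them was -0.07. The ventral Wnt ligand gene wnt8a.L, named after its value was seen, was 2416 ventrally and 2842 vegetally.

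BMP ligands, targets and regulators were divided between the explants. Ligand genes went both ways: bmp7.2.L was 4653 ventrally and 621 vegetally (7.49-fold), and bmp7.1.L 205 and 88.4 (2.32-fold), while bmp2.L was 176 and 541 (3.07-fold higher vegetally) and bmp2.S 228 and 656 (2.87-fold). The type I receptor gene acvr1.L was 2166 ventrally and 5324 vegetally (2.46-fold). Bmp4.S (chosen after seeing its value) had 826 and 540.

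Target genes leaned to the ventral marginal zone with exceptions. Ventx2.1.L was 3.46-fold higher ventrally, the homeobox gene msx1.L was 609 against 253 (2.40-fold), the pseudoreceptor gene bambi.L 329 against 131 (2.51-fold), and szl.S, for a secreted inhibitor of chordin cleavage, 433 against 197. Of the partner copies, bambi.S (111 ventrally, 110 vegetally), szl.L (186, 166) and ventx2.1.S (2375, 1569) were under 2-fold. Msx1.S was 47.6 ventrally and under the floor vegetally. Bambi.S and msx1.S, named after their values were seen, lay under the filter. Ventx3.2.S, another ventral homeobox gene, was 580 ventrally and 1959 vegetally (3.38-fold), against 34.0 dorsally. The GATA gene gata3.S was likewise 157 and 513 (3.26-fold). Of 39 measured ventral and BMP pathway genes, of 59 on the array, 11 were higher ventrally and 5 vegetally, with a median of -0.44. Without the filter the counts were 12 and 7, with a median of -0.22. Of the 39 genes, 6 are also on the epidermal list.

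Genes of the epidermal list gave the largest ventral differences among named genes. The 4 probe sets of the keratin gene krt70.S read between 2016 and 11009 in the ventral marginal zone and at most 35.4 in the vegetal explant, at least 169-fold on average. Under the floor vegetally were also krt12.4.L, with 1156 ventrally (at least 46.8-fold), and krt12.5.S, with 418 (at least 16.9-fold). Krt7.L was 1201 against 36.6 (32.8-fold). The ETS factor gene elf1.L was 2087 and under the floor (at least 84.5-fold).

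Several regulators of the epidermal program were also higher ventrally. The grainyhead-like genes grhl3.L and grhl1.L were 1277 against 45.9 (27.8-fold) and 2513 against 131 (19.1-fold). The homeobox gene dlx3.S was 607 and under the floor (at least 24.6-fold) and dlx3.L 404 and 40.7 (9.92-fold). The AP-2 gene tfap2a.L was 1884 and 335 (5.62-fold), and foxi4.2.S, an ectodermal forkhead gene, 876 and 317 (2.77-fold), while its copy foxi4.2.L was 910.0 and 529 (1.72-fold). E-cadherin, the epithelial adhesion molecule, was 372 ventrally and 39.7 vegetally for cdh1.S (9.38-fold). Each of these genes was higher still in the animal cap, where grhl1.L reached 4060, krt12.4.L 2423 and tfap2a.L 2569.

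In the epidermal list 27 of 53 measured genes, of 68 on the array, passed 2-fold ventrally and 3 vegetally (gata3.S, krt18.1.L and krt19.S), with a median of -1.08. Like the other lists it was chosen with earlier results of these data known. It holds genes among the largest ventral differences, such as rnf222.L and raig4a, so its count is only a description. The simple-epithelial keratin gene krt18.1.L was 7719 vegetally and 2827 ventrally, so keratins did not share 1 direction. Summed over the 61 probe sets of the list, the signal was 147799 in the cap, 102099 in the ventral marginal zone, 83240 in the dorsal and 59016 in the vegetal explant. The limits given for the organizer sums hold here too. The keratins krt12.4.L, krt12.5.S and krt70.L lay under the floor vegetally. The part of ectoderm cells in the ventral piece was not tested.

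Genes of the early neural list split. The pan-neural SOX genes sox2.L and sox3.S were 390 against 65.7 (5.93-fold) and 1830 against 523 (3.50-fold), higher ventrally, and the LIM homeobox gene lhx5.S was 488 and under the floor vegetally (at least 19.8-fold). Kctd15.L, for an inhibitor of AP-2 activity, was 641 against 27.0 (23.8-fold). On the vegetal side stood otx2.L, otx1.L and both hesx1 copies, with the zinc finger gene zic2.L at 1744 against 636 (2.74-fold) and zic2.S at 877 against 377 (2.32-fold). Of 27 measured genes, of 53 on the array, 8 were higher vegetally and 6 ventrally, with a median of 0.25. Without the filter the counts were 13 and 7, with a median of 0.07. Of the 27 genes, 4 are also on the organizer list, otx2.L and the hesx1 copies among them. Otx1.L is also on the germ plasm list and kctd15.L on the epidermal list.

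**Figure D3:**
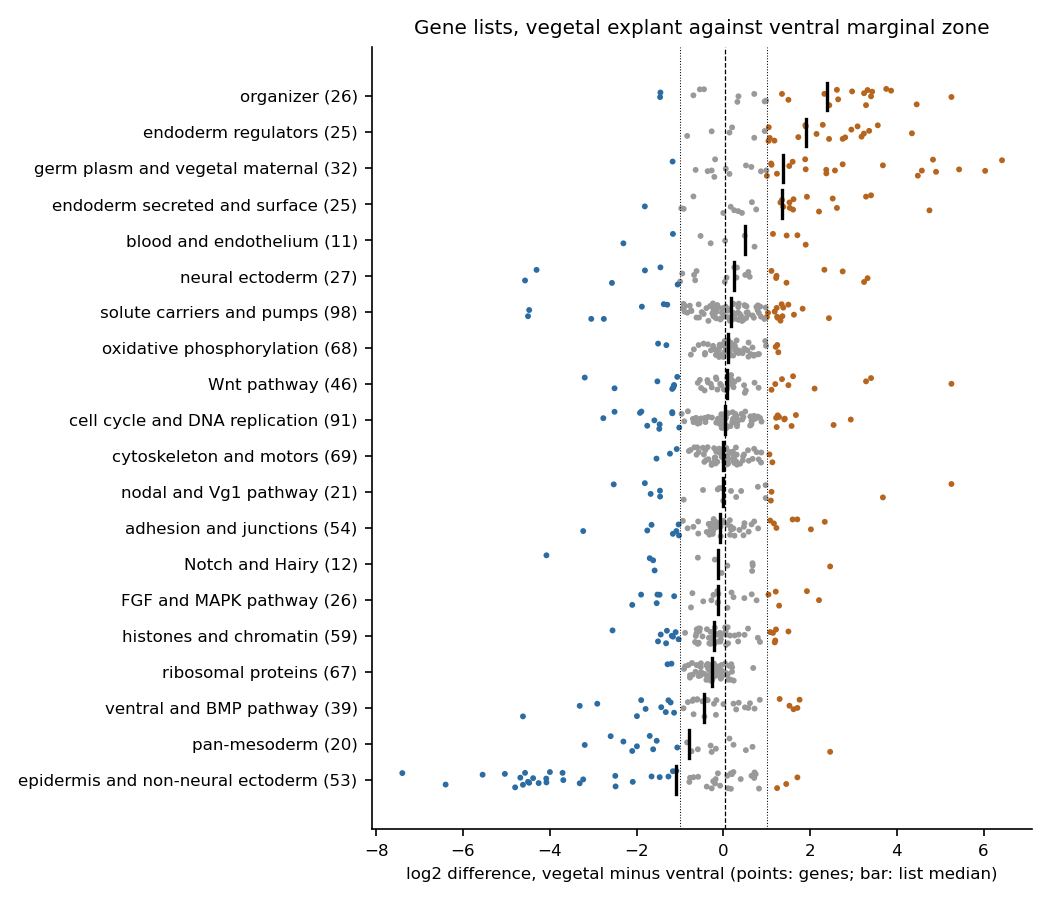
Log2 difference (vegetal minus ventral) of each measured gene in 20 gene lists, with the number of measured genes in brackets. Points are genes, orange when 2-fold or more higher vegetally and blue when higher ventrally, black bars are list medians, the dashed line is the median of all genes (0.05) and dotted lines mark 2-fold. Organizer, endoderm and germ plasm lists lie to the right, epidermal and pan-mesoderm lists to the left.

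Components of intercellular signalling were spread over both sides. The medians of the Wnt, nodal, neural, cell cycle, respiratory chain, cytoskeleton and solute carrier lists lay near 0 and took either sign depending on the scaling. In the Wnt pathway list 9 of 46 measured genes were higher vegetally and 8 ventrally (median 0.08). The receptor gene fzd7.L was higher vegetally on all 5 probe sets, from 0.99 to 2.03 on the log2 scale, and the ligand gene wnt5a.S was 205 against 47.8 (4.29-fold). For fzd8.S, another receptor gene, 1 probe set read 1299 against 129, while the other read 329.7 against 415. On the ventral side the Wnt-responsive cyclin gene ccnd1.L was 1196 against 210 (5.69-fold), its copy ccnd1.S (chosen after seeing its value) was 492 against 345, and the SP-family gene sp5l.S averaged 2012 against 964 (2.09-fold).

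The FGF and MAPK list gave 5 vegetal and 6 ventral calls of 26. Among the 5 is the Mix-type gene bix1.1.L, which the list also holds. The feedback gene spry2.S was 174 vegetally and 71.2 ventrally, whereas the phosphatase gene dusp1.L was 591 and 2199 (3.72-fold higher ventrally), the ETS target gene etv4.L 1518 and 3329 (2.19-fold) and the kinase gene map2k1.L 309 and 855 (2.77-fold). In the Notch list 4 of 12 were higher ventrally, dll1.L and hes7.2.L among them. The others were the Hairy-type gene hes5.10.L, 417 against a vegetal signal under the floor (at least 16.9-fold), and the ligand gene jag1.L (1432 against 478). Of 11 measured blood and endothelial genes, 4 were higher vegetally, among them ets1.S (713 against 259) and ets1.L (663 against 300), and 2 ventrally, aplnr.S and the myeloid factor gene cebpa.L (830 against 371).

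Adhesion genes were balanced, with 7 of 54 (13.0%) on each side, against 8.52% vegetally and 6.47% ventrally of all genes. The connexin gene gjb2.L was 5035 vegetally and 1243 ventrally (4.05-fold), the desmocollin gene dsc3.S 363 and 71.8 (5.05-fold) and N-cadherin, cdh2.L, 166 and 78.6 (2.11-fold). The tight junction gene cldn4.L was 2084 and 6564 (3.15-fold higher ventrally). The ephrin system split, with the ligand gene efna1.L at 2400 against 736 vegetally and the receptor gene epha2.L at 138 against 467. C-cadherin (cdh3.L and cdh3.S) and fibronectin (fn1.S), named after their values were seen, were bright in both explants and differed by -0.32, 0.37 and 0.00.

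Cell cycle genes gave 10 vegetal and 11 ventral calls of 91. The transcription factor gene e2f1.L was 3309 vegetally and 432 ventrally (7.66-fold), the mitotic cyclin gene ccnb1.S 7435 and 1278 (5.82-fold), the checkpoint kinase gene chek1.S averaged 477 and 150 (3.19-fold), and the inhibitory kinase gene wee1 was higher in both copies (wee1.S 2.65-fold, wee1.L 2.34-fold). On the ventral side, ccne2.L was 168 and under the floor vegetally (at least 6.81-fold), cdk1.L 959 and 284 (3.37-fold), cdk4.S 2193 and 729 (3.01-fold) and the Aurora kinase gene aurka 442 against 159 for aurka.S and 280 against 101 for aurka.L. The other cdk1 copy, cdk1.S (chosen after seeing its value), had 1538 ventrally and 1428 vegetally.

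Of 67 measured ribosomal protein genes, 0 were 2-fold higher vegetally and 2 ventrally, rps2.L (1201 vegetally, 2931 ventrally) and rps9 (1613 and 3695), with a median of -0.26. With 4 other scalings that median lay between -0.52 and -0.21. Of 68 respiratory chain genes, 3 were higher vegetally, led by atp5pd.L (997 against 414), and 2 ventrally, with a median of 0.11. The chromatin list had 6 of 59 (10.2%) higher vegetally and 9 (15.3%) ventrally, against 8.52% and 6.47% of all genes, with a median of -0.22. Among them was the oocyte-type linker histone gene h1-8.S at 7020 against 3322. The histone methyltransferase gene kmt5a.S was 79.9 against 469 (5.87-fold higher ventrally). Its copy kmt5a.L, named after its value was seen, was 923 against 969. Cytoskeleton and motor genes gave 2 and 3 of 69.

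Solute carriers and pumps had 14 of 98 (14.3%) higher vegetally and 7 (7.14%) ventrally, against 8.52% and 6.47% of all genes. The carboxylate transporter genes slc13a3.L (558 against 103, 5.40-fold) and slc5a8.1.L (1311 against 369.5, 3.55-fold) led the vegetal side. The ventral side was led by the sodium pump subunit gene atp1b2.L, 1326 against 58.5 (22.7-fold), the glucose transporter gene slc2a2.L, 684 against 30.7 (22.2-fold), and the organic cation transporter gene slc22a4.L, 618 against 74.9 (8.25-fold). These 3 ventral genes were brighter again in the cap, with 2648, 1060 and 1521. Atp1b2.L and slc2a2.L are also on the epidermal list.

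Genes outside the lists stood among the largest differences too. Vegetally, tmem150b.L was 961 against 50.8 (18.9-fold), pced1a.L 630 against a signal under the floor (at least 25.5-fold), the peroxisomal oxidase gene hao1.L 1654 against 166 (9.96-fold), the glycolytic mutase gene pgam1.L 3769 against 393 (9.59-fold), the nitric oxide synthase gene nos1.L 331 against 30.7 (10.8-fold), the ubiquinone synthesis gene coq6.L 593 against 70.2 (8.44-fold), and timm8b.S, for a mitochondrial import chaperone, 1449 against 143 (10.2-fold). The uncharacterised gene LOC101027296 was 1144 and 1452 on its probe sets against 57.2 and 65.5 (21.1-fold).

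Ventrally, the prostaglandin synthase gene ptgs2.S was 13189.6 against 1231 (10.7-fold), with 12909 in the cap and 10367 dorsally. The RNA-decay gene zfp36l1.S was 711 and 49.6 (14.3-fold), the calponin gene cnn2.S 666 and 48.5 (13.7-fold) and the arginase gene arg1.L 849 and 67.2 (12.6-fold). Znf750, an epidermal differentiation factor gene in mammals, was higher ventrally in both copies, znf750.L at 331 against a signal under the floor (at least 13.4-fold) and znf750.S at 350 against 34.7 (10.1-fold). The G protein-coupled receptor genes ptafr.L (2364 against 113, 20.9-fold) and gprc5cl2.S (3211 against 249, 12.9-fold) belonged to the epidermal list. That list was chosen with earlier results of these data known. Pnp.L, a purine phosphorylase gene, was 315 ventrally and 42.6 vegetally (7.41-fold), with 1865 dorsally.

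The 2-fold line cut through a continuum. Just inside it on the vegetal side lay vcan.L (291 against 145), parp16.L (194 against 96.8) and limch1.L (1271 against 635). Just outside it lay XB5748694.L (7297 against 3651), rnf112.1.S (434 against 217) and wdr1.S (459.6 against 230.3). On the ventral side utp18.L (230.0 against 115), msi1.L (2148 against 1074) and wrn.L (585 against 292) lay just inside, and hnrnpa3.L (1.98-fold), phospho2.L (1.99-fold) and sox15.L (2414 against 1209) just outside.

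The dorsal marginal zone and the animal cap, arrays that the choice of probe sets did not use beyond setting the floor and filter, were then set against each other for the called probe sets. Of the 795 vegetal ones, 496 reached the filter in the dorsal marginal zone or the cap, and 112 of these (22.6%) were 2-fold or more higher dorsally and 4 (0.81%) in the cap, with a median of 0.29. Over all 7841 probe sets measured both ways, the called ones included, the shares were 3.42% and 1.70%, with a median of -0.02. Among the 6696 measured probe sets not called, they were 1.58% and 0.67%. Of 649 measured ventral ones, 50 (7.70%) were higher dorsally and 84 (12.9%) in the cap, with a median of -0.13. The measured vegetal probe sets leaned to the dorsal marginal zone. The filter on these 2 arrays left out 299 vegetal, 25 ventral and 409 uncalled probe sets. A probe set that entered through its dorsal signal alone had to be higher dorsally, so the shares describe the measured probe sets only. Ventral ones exceeded the shares of uncalled probe sets both ways, with more higher in the cap than dorsally. Most of either set differed less than 2-fold between these arrays.

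**Figure D4:**
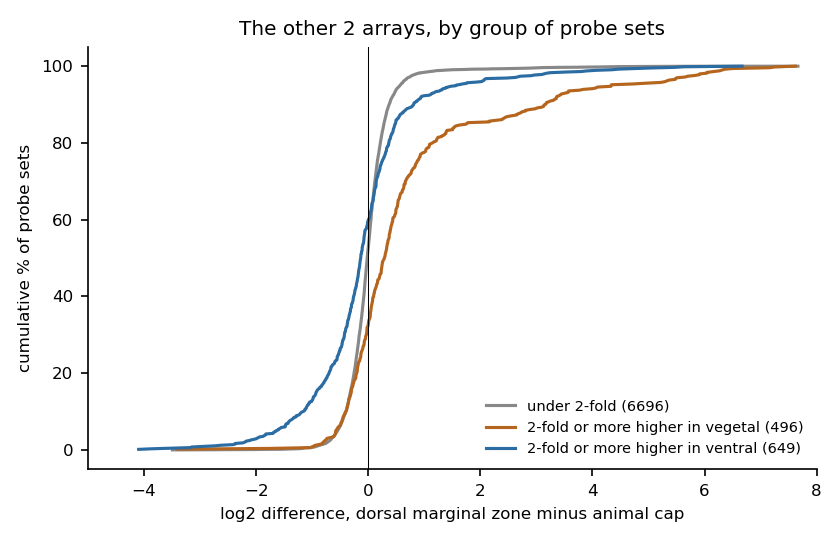
Cumulative percentage of probe sets (vertical) against the log2 difference of the dorsal marginal zone minus the animal cap (horizontal), for the 496 probe sets higher in the vegetal explant, the 649 higher in the ventral marginal zone and the 6696 under 2-fold. From the middle upwards the vegetal curve lies to the right of the others, and the ventral curve is wider on both sides than the curve of probe sets under 2-fold.

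Ranks among the 4 explants reuse the values that chose the sets, so they only describe them. By the choice itself the ventral marginal zone cannot be highest in the vegetal set, nor the vegetal explant in the ventral set. The vegetal explant had the highest signal of all for 772 of its 795 probe sets (97.1%), the dorsal marginal zone for 22 and the cap for 1. For the 674 ventral ones, the highest signal was in the cap for 299 (44.4%), in the ventral marginal zone itself for 236 (35.0%) and in the dorsal marginal zone for 139 (20.6%). Median signals of the ventral set were 575 in the cap, 521 dorsally, 581 ventrally and 165 in the vegetal explant. The vegetal explant had the lowest signal of the 4 for 625 of them.

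Repeated measurement inside the arrays came from genes with several probe sets. Among 1364 pairs of probe sets of 669 genes, the SD of the difference within a pair was 0.69 on the log2 scale and the median gap 0.31. A member passed 2-fold in 403 pairs, of which 349 had equal signs and 216 had both members past 2-fold the same way. In 6 pairs, from mig30.L, nfe2.S, pc.1.L and polr2i.S, both passed in opposite directions. For nfe2.S, one probe set read 1060 vegetally and 219 ventrally and another 28.5 and 433, so that no single value is given for that gene. Probe sets of 1 gene share both arrays and their RNA, so this spread leaves out differences between embryos. Some probe sets of a gene may also share sequence, and genes with many probe sets give several pairs, so the pairs are not independent.

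Homeologous copies gave a second view of the same arrays and RNA, which also leaves out differences between embryos. Of 573 pairs with both copies measured, the SD of the difference between copies was 0.83 and the median gap 0.38. In 130 pairs a copy passed 2-fold, with the same sign in 107 and both past 2-fold the same way in 35. Only wdr83os passed in opposite directions, with wdr83os.L at 194 vegetally and 411 ventrally and wdr83os.S at 221 and 46.7. The widest gap was that of elf1, where elf1.S (chosen after seeing its value) was 207 vegetally and 117 ventrally against a vegetal elf1.L under the floor. Similar splits, with the partner copy named after its value was seen, held for ckap4 (ckap4.S 472 ventrally and under the floor vegetally, ckap4.L 214 and 293), timm8b (timm8b.L 810 ventrally and 490 vegetally) and slc25a17 (slc25a17.L 1655 and 245, slc25a17.S 305 and 454). Other partners of genes named above, chosen after seeing their values, were under 2-fold: dusp1.S had 127 vegetally and 212 ventrally, krt19.L 929.6 and 862, krt18.1.S 1442 and 1092, atp5pd.S 647 and 524, acvr1.S 1378 and 976, cdh2.S 154 and 111, and celf1.S 366 and 571.

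**Figure D5:**
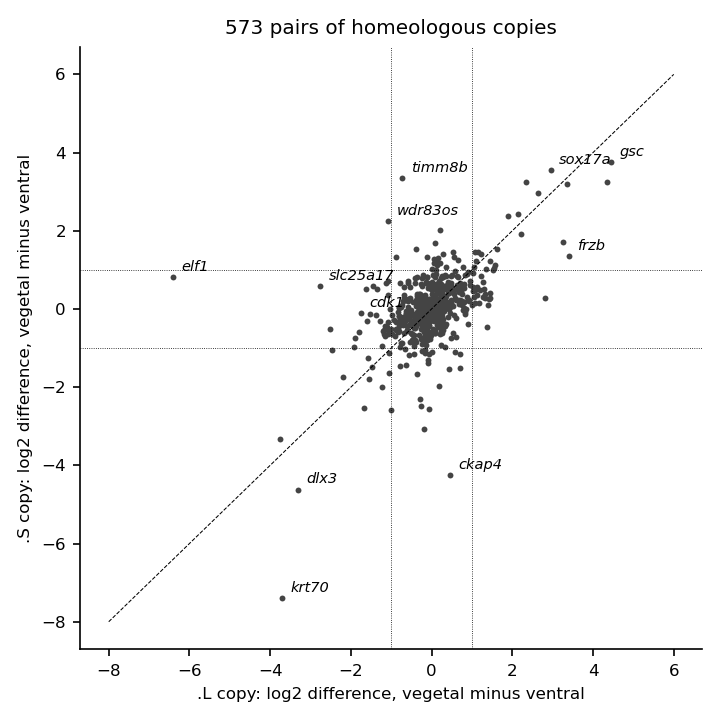
Log2 difference (vegetal minus ventral) of the .S copy (vertical) against the .L copy (horizontal) for 573 homeologous pairs, with dotted lines at 2-fold and the diagonal dashed. Gsc, sox17a, frzb, dlx3 and krt70 have both copies on the same side, while elf1, ckap4, timm8b and wdr83os lie far from the diagonal.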

How the data were processed

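The authors deposited linear intensity signals for each probe set, 1 column per explant. Summarisation software: not given in the sources used here. With 2% of probe sets trimmed from either end, every array averaged 500.1, so the deposited intensity values carry a whole-array scaling, as read from the values, and they were used without further scaling. Columns were assigned to explants by sample title. Signals were floored, put on the log2 scale and filtered as stated above. Of 9304 probe sets with 1 symbol in the platform annotation (195 had several, 5992 none), 9227 matched the gene table of assembly Xenopus_laevis_v10.1 by identifier. A gene is the mean log2 signal of its probe sets that passed, and its fold is a lower bound ("at least") where a lower signal was under the floor. With 1 array per explant no test, error or p-value was possible, and the number of arrays limits precision.

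Members, lists and tests were chosen with earlier results of these data known. The 20 lists were matched by symbol without the copy suffix or by name prefix. S6 kinase, keratin and mylip genes that prefixes had caught were taken out after values were seen. Lists overlap, for example the adhesion and epidermal lists by 16 measured genes and the Wnt and organizer lists by 7. The genes named were drawn from the 30 largest differences each way, up to 15 of the largest bounds each way, and list members past 2-fold. To these came 3 genes on either side of the threshold, the label checks and pairs in opposite directions. Not every gene of these sets is described above, for example XB5765006.S (13.5-fold higher vegetally) and trim29.L (at least 11.9-fold higher ventrally). The calculation was tested on simulated data, with large planted changes and noise smaller than the spread between probe sets of the same gene. That checks the calculation only and does not estimate false calls in these data. Python 3.11.15, pandas 2.3.3 and numpy 2.4.6 were used.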

Additional observations from a re-analysis of the deposited data

How the results depend on the processing

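The counts, list medians and named genes were recomputed under 10 alternatives, none with a test. No paired analysis was possible because each explant has 1 array and the replicate numbers pair nothing. The floor at the 10th or 30th percentile left both counts at 795 and 674. A floor 2-fold or more under the filter signal cannot move these counts, since the higher signal always reached the filter. With no filter, probe sets dim on both arrays entered. Of 15491, 1333 (8.6%) were then higher vegetally and 963 (6.2%) ventrally, both smaller shares than with the filter. Scaled to the spike-ins the counts were 513 vegetally and 1121 ventrally. An offset of 50 in place of the floor gave 582 and 506, quantile normalization 744 and 737, and removal of a lowess trend 646 and 783. Of 200 list medians recomputed, 189 moved by less than 0.31, the median gap between probe sets of 1 gene. Centring on array medians moved the median of all probe sets from 0.02 to -0.11, and spike-in scaling to -0.26. Both shifts are smaller than 0.31, so under these settings most list medians had to stay within it. The 5 lists with medians past 1 in size kept their sign under all 10, and shifts of that size could not have reversed them. With no filter the medians were 1.12 (endoderm regulators), 0.78 (endoderm secreted), 1.29 (organizer), -0.67 (epidermis), -0.073 (pan-mesoderm) and 0.12 (blood and endothelium). The organizer median was 1.97 with the lowess trend removed and 1.75 with the offset, and the germ plasm median 1.89 with the filter at the 60th percentile. Scaled to the spike-ins, the Notch median was -0.46 and the ventral and BMP median -0.74, with the median of all probe sets at -0.26. Of the named genes past 2-fold, 217 of 253 stayed past it with the spike-in scaling and 213 of 255 with the offset, which shrinks the differences of dim genes. Under the 10 alternatives 0 changed sign, a result largely fixed in advance. The genes were chosen for differences of 2-fold or more, and the whole-array scalings shift values by far less.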

Other observations

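A set of genes of the oocyte and egg, listed after values had been seen, lay towards the vegetal explant. Of 49 measured genes, of 53 on the array, 24 were 2-fold or more higher vegetally and 1 ventrally, with a median of 0.93, against 8.52% and 6.47% of all genes. As the list was chosen after values were seen, these shares only describe it. It was not recomputed under the other scalings, of which the spike-in one moved the median of all probe sets to -0.26. Some calls lay close to 2-fold, such as rbpms2.S (2.01-fold) and spdyc.L (2.04-fold). The list shares dazl.L, the rbpms2 copies and several cell cycle genes with lists in the report. The gap junction gene cx38.S was 302 vegetally, 58.8 ventrally, 35.6 dorsally and 61.2 in the cap. The antiproliferative gene tob2.L averaged 864, 165, 140 and 64.1 in the same order.

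Dazl.L and ccnb1.S, given in the report, were further apart, and the genes below less so. The kinase gene mastl.L, which opposes a mitotic phosphatase, was 1946 vegetally against 687, 736 and 681. The translational regulator genes zar2.S (368 against 140 ventrally), lsm14b.L (6265 against 2589) and patl2.L (793 against 365) and the egg chromatin gene npm2.L (3239 against 1583) were between 2.05-fold and 2.63-fold apart. The copies lsm14b.S (1643 against 1015) and npm2.S (1.90-fold) were under 2-fold. Others did not separate the explants, among them mos.L (1242 and 998), ccnb1.2.L (7316 and 6056), btg4.S (523 and 537) and zar1.S (375 and 442). The 1 gene past 2-fold ventrally was eef1a1o.S, for the oocyte form of elongation factor 1-alpha, with 2423 vegetally and 6874 ventrally, while eef1a1o.L was 2503 and 1533.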
